A study of Mus musculus with 4 samples.

Results

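Integrins are the receptors through which a cell holds on to its surrounding matrix, and focal adhesions are the protein assemblies that tie those receptors to the actin cytoskeleton. The genes described here are 39 integrin subunits and focal adhesion proteins, taken by symbol from a list of names, and all 39 were present among the 23377 genes of the count table. Cancer-associated fibroblasts (CAFs) are the matrix-forming stromal cells of a tumour, and messenger RNA of mouse CAFs was sequenced as polyadenylated RNA in 4 libraries. One group held 2 CAF libraries whose phenotype label is a resistant tumour, titled RES4, and the other held 2 CAF libraries labelled as associated with a normal tumour, titled WTA. The series title sets this in a study of lactate secretion by cancer cells and adaptive resistance to drugs against MET and EGFR. The labels name no strain, age, sort or treatment for either group. Within a group the titles differ only in the replicate number. The design text calls the 2 libraries of a group biological replicates, but nothing says whether they came from separate cultures or animals. The p-values thus rest on the spread between libraries alone, which may be smaller than that between animals. Each group may stand for 1 tumour or culture.

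An integrin is a heterodimer of an alpha and a beta chain. The alpha chain largely sets which ligand is bound, so that receptors are grouped into those for collagens, those for laminins and those for proteins that carry the tripeptide arginine-glycine-aspartate (RGD), such as fibronectin and vitronectin. Talin and kindlin bind the tail of the beta chain and switch the receptor on, vinculin strengthens the link to actin, and kinases and adaptors such as FAK, paxillin and the complex of ILK, PINCH and parvin pass on signals. In fibroblasts these receptors are known for assembling fibronectin, for pulling on collagen and for releasing latent TGF-beta.

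Resistant and normal tumour CAFs differed in the levels of several integrin chains. The collagen receptor chain Itga11 and the RGD receptor chains Itgb3, Itgb5 and Itga5 were higher in resistant tumour CAFs. The laminin receptor chains Itga7, Itga3 and Itgb4, the common beta chain Itgb1 and the TGF-beta activating chain Itgb8 were lower. Among the proteins on the inner side of the membrane, Ptk2b, Lpp and Lims1 were higher, whereas Parvb and Pxn were lower. Only Itga11, Itga7, Itgb1, Itgb8, Lpp and Parvb, among the genes just named, passed in every alternative analysis described below. Of the 39 genes, 37 passed the filter on low counts. In edgeR's quasi-likelihood test, the test behind every adjusted p given here unless another is named, 11 of them were higher and 7 lower at a Benjamini-Hochberg adjusted p under 0.05. The 18 called genes were 48.6% of the 37 tested, where 29.4% of all 12001 genes tested were called, 15.5% as higher and 13.9% as lower. The median log2 fold change was 0.42 for the 37 genes and -0.0036 for all genes tested. The group ranges of CPM (counts scaled by library size and TMM factor) did not overlap for 28 of the 37 (75.7%), where the share among all genes tested was 64.7%. Of the 37 genes, 9 passed the filter through 1 group only, which favours genes that differ; 6 of these were called, namely Itgb4, Itgb8, Itga9, Itgb2, Itgbl1 and Parvb. Leaving out normal replicate 1 left 5 genes called higher and 4 lower, and leaving out normal replicate 2 left 3 and 5.

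**Figure D1:**
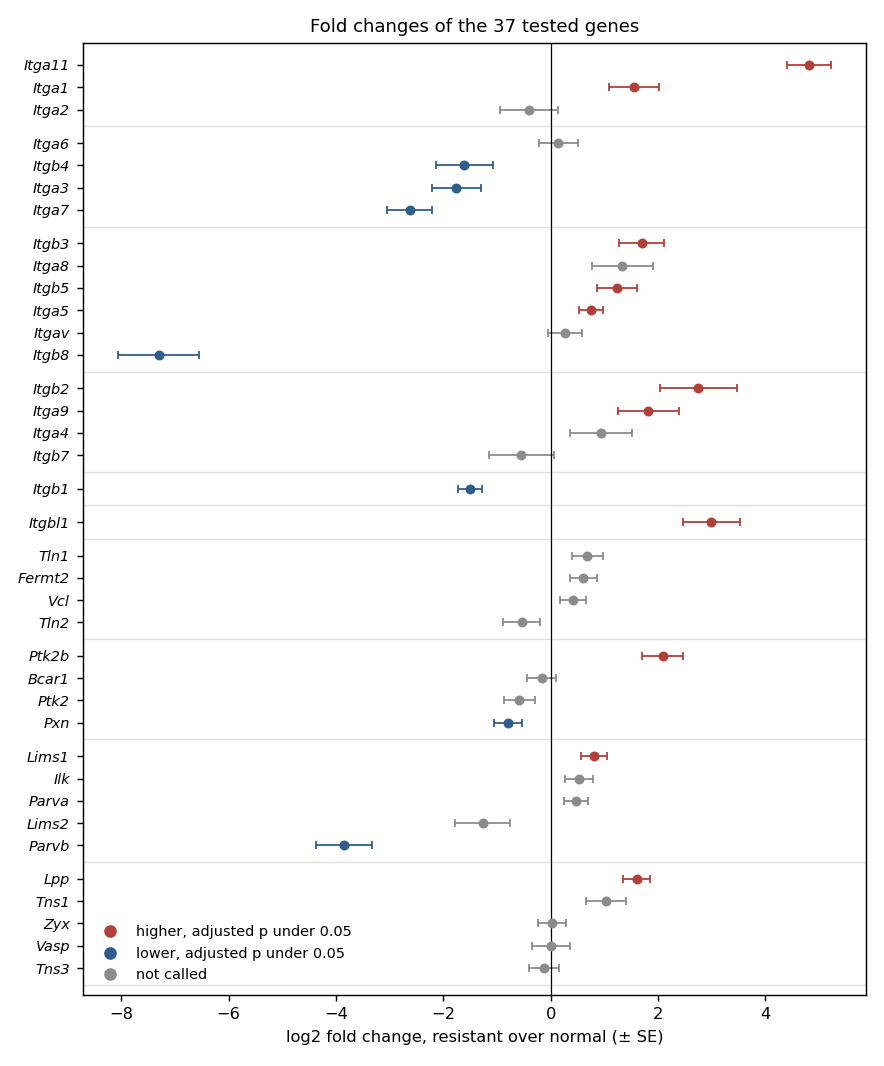
Log2 fold change, resistant over normal, with its standard error for the 37 tested genes, grouped from top to bottom into collagen, laminin and RGD receptors, other integrins, Itgb1, Itgbl1 and the adhesion proteins inside the cell. Itga11 lies farthest to the right at 4.82, and Itgb8 farthest to the left at a fitted value of -7.30, which depends on the prior count because that gene had 2 reads in resistant tumour CAFs.

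The promoters of the most raised and the most lowered of the called genes are shown because they are the sequences next to which the contrast is widest. RefSeq promoters of build GRCm38.p6 were matched by symbol for 28 of the 39 genes. The stretches are the 250 bases before the annotated start of Itga11 at chr9:62677605-62677854 (plus strand), Itgbl1 at chr14:123659890-123660139 (plus strand), Itgb8 at chr12:119238277-119238526 (minus strand) and Parvb at chr15:84231793-84232042 (plus strand), read 5′ to 3′ along the gene. The first pair was higher and the second pair lower in resistant tumour CAFs.
Itga11: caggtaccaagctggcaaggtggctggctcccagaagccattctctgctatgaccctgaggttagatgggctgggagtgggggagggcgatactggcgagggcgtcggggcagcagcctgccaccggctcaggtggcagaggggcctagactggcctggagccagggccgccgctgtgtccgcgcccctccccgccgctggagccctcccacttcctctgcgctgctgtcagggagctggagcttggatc
Itgbl1: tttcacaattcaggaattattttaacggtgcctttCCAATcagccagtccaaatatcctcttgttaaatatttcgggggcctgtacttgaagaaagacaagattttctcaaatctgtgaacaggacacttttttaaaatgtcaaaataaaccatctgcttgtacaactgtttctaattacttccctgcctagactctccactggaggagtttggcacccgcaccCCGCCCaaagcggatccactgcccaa
Itgb8: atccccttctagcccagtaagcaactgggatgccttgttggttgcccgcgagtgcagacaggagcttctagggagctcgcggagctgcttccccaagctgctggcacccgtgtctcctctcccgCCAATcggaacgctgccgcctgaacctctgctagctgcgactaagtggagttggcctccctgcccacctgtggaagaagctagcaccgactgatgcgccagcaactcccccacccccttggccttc
Parvb: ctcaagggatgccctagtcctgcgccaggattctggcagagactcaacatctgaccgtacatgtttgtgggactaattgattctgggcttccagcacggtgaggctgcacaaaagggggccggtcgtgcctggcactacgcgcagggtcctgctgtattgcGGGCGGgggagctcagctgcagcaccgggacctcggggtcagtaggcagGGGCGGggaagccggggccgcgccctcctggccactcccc
Capitals mark matches, on either strand, to the GC box GGGCGG, the CCAAT box CCAAT, the TATA box TATAAA, the AP-1 site TGANTCA and the TEAD site GGAATG, and no match overlapped another. The CCAAT box was added after the matches to the others had been seen. Itgbl1 held 1 GC box and 1 CCAAT box, which begin 26 and 215 bases before the start. Itgb8 held 1 CCAAT box, 126 bases before the start, and Parvb held 2 GC boxes, 89 and 40 bases before it. In the window of Itga11 none of these letters was found, which says nothing of the factors themselves. Among 32851 RefSeq promoter windows of the same length, 32.7% held the GC box, 33.8% the CCAAT box, 12.4% the TATA box, 6.75% the AP-1 site and 12.6% the TEAD site.

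Library totals were 2845237 and 2785936 reads in resistant and 3948066 and 5558541 reads in normal tumour CAFs, so both normal libraries were the deeper ones. Across 11934 genes with an exonic length, the log2 ratio of resistant replicate 1 over replicate 2 correlated with that length at a Spearman's rho of 0.437, and the ratio of the normal replicates at 0.213. The log2 fold change between the groups correlated with that length at 0.0192. Genes are not independent replicates. The adhesion genes are long, with a median exonic length of 4765 bases beside 3375 bases over all genes tested. Resistant replicate 1 was higher than replicate 2 in 34 of the 37, and in 52.4% of all genes tested. Normal replicate 1 was higher than replicate 2 in 26 of the 37, and in 49.4% of all genes tested. The part of gene length in these counts was not tested. Of the fibroblast markers, 8 of 9 tested were higher in resistant tumour CAFs, with a summed level of 7333 and 6926 CPM in resistant and 3455 and 2935 CPM in normal tumour CAFs. Pdgfra stood at 1119 and 881 CPM in resistant tumour CAFs and at 29.7 and 7.41 CPM in normal tumour CAFs, and Dcn at 92.5 and 127 CPM in resistant and 0.743 and 0.168 CPM in normal tumour CAFs. Both were picked with their values known, and other markers of the same list were abundant in all libraries. Col1a1 had 1689 and 1703 CPM in resistant and 1180.3 and 965 CPM in normal tumour CAFs, and Postn, which was not called, had 560.1 and 539 CPM in resistant and 626 and 552 CPM in normal tumour CAFs. The Schwann cell and neural crest markers had a summed level of 31.2 and 22.0 CPM in resistant and 1408 and 1250.1 CPM in normal tumour CAFs, with all 7 tested members lower. In bulk RNA, fewer cells of a type and less RNA per cell cannot be told apart. The part of these markers in the differences below was not tested.

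**Figure D2:**
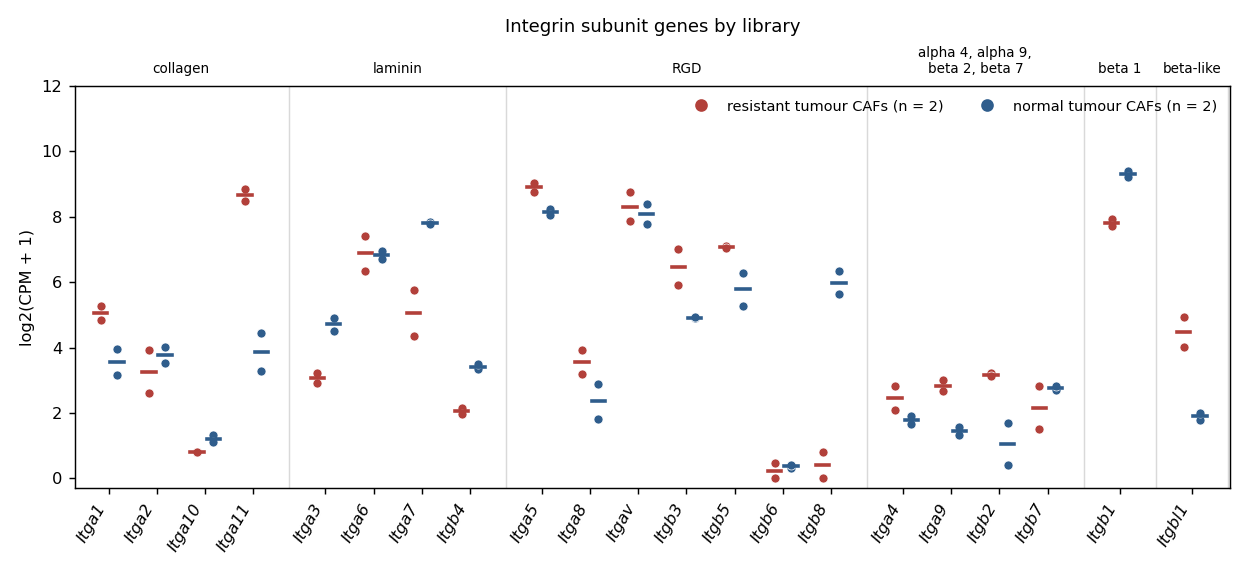
Level of each integrin gene in each library as log2(CPM + 1), with resistant tumour CAFs in red to the left of normal tumour CAFs in blue, points for the 2 libraries and a bar for their mean. Itga11, Itgb3 and Itgbl1 sit higher in both resistant libraries than in either normal library, and Itga7, Itgb1 and Itgb8 lower.

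Among the collagen receptors Itga11 changed most. Itga11, which pairs with Itgb1 into a receptor for fibrillar collagen that is best known from fibroblasts, stood at 464 and 355 CPM in resistant tumour CAFs, against 20.8 and 8.75 CPM in normal tumour CAFs. Both resistant libraries were far above both normal libraries. The fitted log2 fold change was 4.82 ± 0.41 (SE; adjusted p = 8.21e-06), and over all alternatives it lay between 4.27 and 5.49. Itga1, whose receptor prefers the collagen IV of basement membranes, had 38.0 and 27.5 CPM in resistant and 14.6 and 7.91 CPM in normal tumour CAFs. The log2 fold change, resistant over normal, was 1.55 ± 0.46 (adjusted p = 0.0225). That call was lost without resistant replicate 1 (adjusted p = 0.0722), without normal replicate 1 (0.0548) or 2 (0.370), and with read density accounted for (0.0644). Itga2, the collagen receptor chain of platelets and epithelia, had 14.1 and 5.14 CPM in resistant and 15.1 and 10.4 CPM in normal tumour CAFs, with overlapping groups and a log2 fold change of -0.41 ± 0.54 that did not pass. Itga10, known from cartilage, was not tested, with 2 and 2 reads in resistant and 6 and 7 reads in normal tumour CAFs. Its ratio of pooled CPM, resistant over normal, was 0.573 with an exact 95% counting interval of 0.136 to 1.86.

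Among the laminin receptor chains the calls went the other way, with 3 of 4 lower, where 13.9% of all genes tested were called lower. DESeq2 called 2 of the 4 lower. Itga7, whose receptor with Itgb1 binds laminin in muscle and in peripheral nerve, stood at 53.3 and 19.5 CPM in resistant tumour CAFs, against 230.4 and 219 CPM in normal tumour CAFs. Its log2 fold change was -2.63 ± 0.42 (adjusted p = 4.59e-04), between -3.53 and -2.08 over the alternatives. The muscle markers summed to 1.90 and 2.57 CPM in resistant and 51.0 and 58.1 CPM in normal tumour CAFs, with Myod1, Myog, Myf5 and Myf6 at 0 in every library. Nearly all of the normal sum is Cdh15, with no read in resistant and 48.3 and 54.4 CPM in normal tumour CAFs. The pericyte and smooth muscle markers summed to 645 and 802 CPM in resistant and 1088 and 950 CPM in normal tumour CAFs, with 2 of 9 tested higher and 2 lower. The lower ones were Mcam, at 17.9 and 27.9 CPM in resistant and 285 and 266 CPM in normal tumour CAFs, and Cspg4. Cspg4 had 19.8 and 12.8 CPM in resistant and 281 and 193 CPM in normal tumour CAFs. Myh11 and Rgs5 were higher, and the other 5 were not called. Among these, Acta2 had 244 and 369 CPM in resistant and 277 and 251 CPM in normal tumour CAFs. Tagln had 199 and 251 CPM in resistant and 162 and 145 CPM in normal tumour CAFs. The part of either list was not tested. Itga3 had 8.37 and 6.61 CPM in resistant and 29.2 and 21.5 CPM in normal tumour CAFs. That is a difference on the log2 scale of -1.75 ± 0.46 (adjusted p = 0.0117). The call was lost when normal replicate 1 was left out (0.0933). Itgb4, the partner of Itga6 in the hemidesmosomes of epithelia, was a weakly expressed gene with 9 and 8 reads in the resistant and 37 and 61 reads in the normal libraries. Its log2 fold change of -1.61 ± 0.52 (adjusted p = 0.0359) did not pass without any single one of the 4 libraries (adjusted p from 0.0664 to 0.141) or with DESeq2 (0.151). The epithelial markers summed to 45.7 and 63.9 CPM in resistant and 9.66 and 9.26 CPM in normal tumour CAFs, with Epcam, Cdh1, Krt5, Cldn4 and Cldn7 at 0 in every library. The resistant sum is Krt19 alone, at 45.7 and 63.9 CPM in resistant and 6.44 and 6.40 CPM in normal tumour CAFs, while Krt14 had no read in resistant and 12 and 15 reads in normal tumour CAFs. Itga6, the alpha chain that laminin receptors of both Itgb1 and Itgb4 use, had 169 and 80.7 CPM in resistant and 122 and 104.0 CPM in normal tumour CAFs, and the normal values lay between the resistant ones. Its log2 fold change was 0.14 ± 0.36 and turned to -0.48 without resistant replicate 1.

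Within the RGD receptors the beta chains parted. Itgb3, the beta chain of the vitronectin receptor with Itgav, had 129 and 59.5 CPM in resistant tumour CAFs, against 28.7 and 29.3 CPM in normal tumour CAFs. On the log2 scale the difference was 1.70 ± 0.42 (adjusted p = 0.00853). Itgb5, another partner of Itgav, had 138 and 130.3 CPM in resistant and 76.6 and 37.9 CPM in normal tumour CAFs. Resistant over normal, the log2 value was 1.23 ± 0.37 (adjusted p = 0.0246). Itga5, the alpha chain of the main fibronectin receptor, had 521 and 434 CPM in resistant and 300.04 and 267 CPM in normal tumour CAFs. Between the groups the log2 fold change came to 0.75 ± 0.23 (adjusted p = 0.0276). For these 3 genes both resistant libraries lay above both normal ones. None of the 3 passed without normal replicate 1 (adjusted p from 0.0544 to 0.176) or without normal replicate 2 (0.130 to 0.518), although their log2 fold changes stayed at 0.64 or above. Itgb3 is also a platelet gene. The platelet markers summed to 11.0 and 24.6 CPM in resistant and 3.96 and 5.39 CPM in normal tumour CAFs. Itga2b, the platelet partner of Itgb3, made up 10.3 and 20.6 CPM of that in resistant and 2.48 and 3.70 CPM in normal tumour CAFs, while Pf4 had 1 read in all and Gp9 none. Ppbp had 1 and 9 reads in resistant and none in normal tumour CAFs, and Gp1bb had 1 and 1 reads in resistant and 6 and 10 reads in normal tumour CAFs; the part of such cells was not tested.

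Itgb8, whose dimer with Itgav activates latent TGF-beta, had 0 and 2 reads in the resistant libraries and 321 and 290 reads in the normal libraries. The ratio of pooled CPM, resistant over normal, was 0.0061 with an exact 95% counting interval of 0.000737 to 0.0221 (adjusted p = 2.56e-05). Itgb6, the epithelial beta chain with the same function, had at most 2 reads in any library and was not tested. Itgav, the alpha chain that Itgb3, Itgb5, Itgb6 and Itgb8 share, had 430.3 and 232 CPM in resistant and 332 and 219 CPM in normal tumour CAFs, with overlapping groups and a log2 fold change of 0.27 ± 0.31 (adjusted p = 0.575). Itga8, a receptor chain for nephronectin, had 14.1 and 8.07 CPM in resistant and 6.44 and 2.52 CPM in normal tumour CAFs. As a log2 fold change this was 1.34 ± 0.58, which did not pass (adjusted p = 0.103).

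Itgb1, the beta chain of all the collagen receptors and of the main fibronectin and laminin receptors, stood at 242 and 208 CPM in resistant tumour CAFs, against 674 and 600.04 CPM in normal tumour CAFs. The log2 fold change was -1.50 ± 0.23 (adjusted p = 3.79e-04), and it passed in every alternative, between -1.67 and -1.40. Of the alpha chains that can pair with it, Itga11, Itga1, Itga5 and Itga9 were called higher, Itga7 and Itga3 were called lower like Itgb1, Itga2, Itga4, Itga6, Itga8 and Itgav were not called, and Itga10 was not tested. Itgbl1, a secreted protein related to the integrin beta chains that is not a receptor subunit, had 29.7 and 15.05 CPM in resistant and 2.48 and 3.03 CPM in normal tumour CAFs. The fitted log2 fold change was 2.99 ± 0.54 (adjusted p = 0.00108).

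The remaining chains were expressed weakly. Itgb2, the beta chain of leukocyte integrins, had 22 and 21 reads in resistant and 9 and 2 reads in normal tumour CAFs. The log2 fold change, resistant over normal, was 2.75 ± 0.71 (adjusted p = 0.0115). It passed neither without resistant replicate 1 or 2 (adjusted p = 0.0522 and 0.0520) nor without normal replicate 2 (0.125). The leukocyte markers summed to 19.0 and 22.0 CPM in resistant and 32.2 and 48.3 CPM in normal tumour CAFs. Among them Ptprc, Emr1, Aif1 and Cd3e had no read in any library. Of the 4 tested markers, Lyz2 was called higher, at 7.61 and 7.71 CPM in resistant and 0.496 and 1.18 CPM in normal tumour CAFs. Laptm5 was called lower, at 0.761 and 0.367 CPM in resistant and 22.8 and 40.7 CPM in normal tumour CAFs. Cd68 and Csf1r were present in every library and not called. Cd68 had 13 and 10 reads in resistant and 16 and 21 reads in normal tumour CAFs, and Csf1r had 11 and 19 against 11 and 15 reads. The part of such cells was not tested. Of the alpha chains that pair with Itgb2, Itgal, Itgam and Itgax had at most 2 reads in a library and Itgad none. Itga9, a receptor chain for tenascin C, had 14 and 19 reads in resistant and 8 and 9 reads in normal tumour CAFs. That is a difference on the log2 scale of 1.82 ± 0.57 (adjusted p = 0.0298). With read density accounted for it had 0.91 (adjusted p = 0.261), and it passed neither with DESeq2 (0.194) nor without resistant replicate 2 (0.105) or either normal replicate (0.0833 and 0.206). Itga4, the VCAM1 receptor chain, had 16 and 9 reads in resistant and 11 and 13 reads in normal tumour CAFs (log2 fold change 0.94 ± 0.58). Its partner Itgb7 had 16 and 5 reads in resistant and 22 and 36 reads in normal tumour CAFs (-0.55 ± 0.60), and neither gene passed.

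Levels can be set against each other between genes only per length, so CPM per kilobase of exonic sequence (CPM per kb) was computed. In resistant tumour CAFs the highest integrin genes were Itga5 at 109 ± 13.99 CPM per kb (SD, n = 2), Itga11 at 82.5 ± 15.5, Itgb1 at 58.9 ± 6.35, Itgav at 47.0 ± 19.8 and Itgb5 at 39.6 ± 1.63. In normal tumour CAFs they were Itgb1 at 167 ± 13.7 CPM per kb, Itga5 at 64.7 ± 5.31, Itga7 at 54.2 ± 1.89, Itgav at 39.04 ± 11.3 and Itga6 at 25.9 ± 2.90. In resistant tumour CAFs the values of Itga5 and Itga11 did not overlap with the next gene in the order, whereas Itgb1 overlapped with Itgav, Itgav with Itgb5 and Itgb5 with Itga6. In normal tumour CAFs each of the first 7 genes lay apart from the next. Itga11 was in second place in resistant tumour CAFs, against the tenth place, at 2.97 ± 1.72 CPM per kb, in normal tumour CAFs.

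Shares were taken over the 12 alpha and 8 beta chains among the 39 genes, without Itga2b, Itgae, Itgal, Itgam and Itgax. Of the alpha chain CPM per kb, the collagen receptor chains made up 29.5% and 32.0% in resistant tumour CAFs, against 3.71% and 2.35% in normal tumour CAFs. The laminin receptor chains made up 15.8% and 10.5% in resistant tumour CAFs, against 41.6% and 45.5% in normal ones. The shares of the RGD receptor alpha chains overlapped between the groups, at 54.3% and 57.0% in resistant tumour CAFs and 54.4% and 51.9% in normal ones. Of the beta chains, Itgb1 made up 48.0% and 50.9% in resistant tumour CAFs, against 81.1% and 85.8% in normal ones, while Itgb5 had 30.8% and 35.9% in resistant tumour CAFs, against 10.4% and 6.09% in normal ones. Summed over these alpha chains the level was 336 and 234 CPM per kb in resistant and 214 and 178 CPM per kb in normal tumour CAFs, and summed over these beta chains it was 132 and 107 CPM per kb in resistant and 218 and 183 CPM per kb in normal tumour CAFs. An exact permutation test of 2 against 2 libraries cannot go below a two-sided p of 0.333, so the shares are given without a test.

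**Figure D3:**
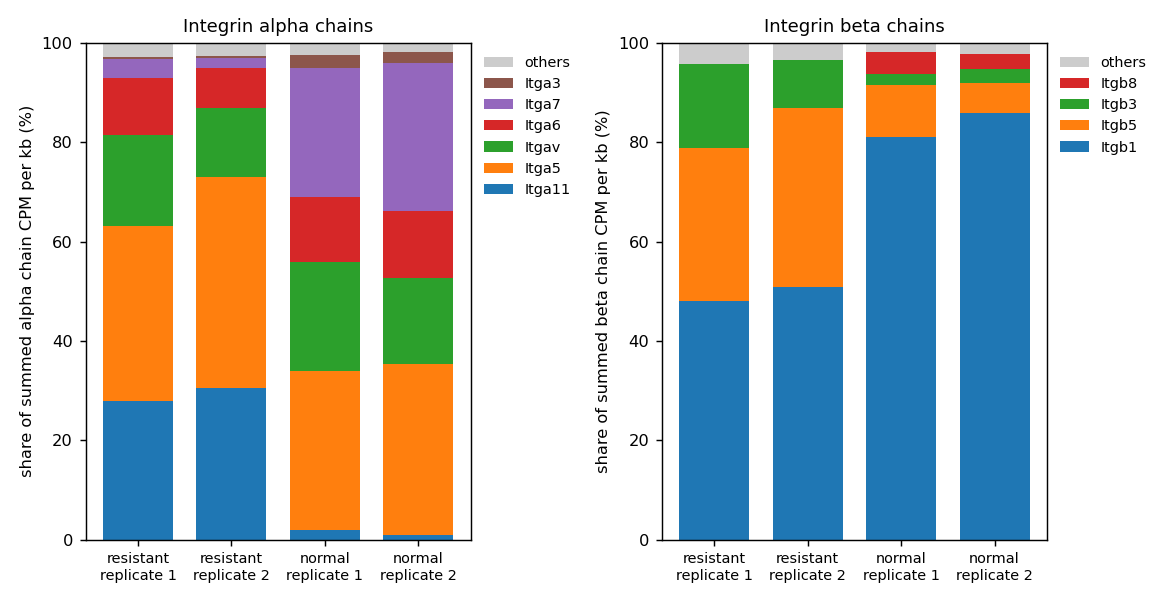
Share of the summed CPM per kb of the 12 alpha chains (left) and 8 beta chains (right) among the 39 genes held by each integrin gene in the 2 resistant and 2 normal libraries. The Itga11 block fills 27.8% and 30.5% of the resistant bars and 1.95% and 0.990% of the normal bars, and Itga7 fills 3.83% and 2.00% of the resistant bars and 25.9% and 29.7% of the normal bars.

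Inside the cell, the proteins that switch integrins on and couple them to actin showed no call. Tln1 (talin 1) had 958 and 536 CPM in resistant and 542 and 389 CPM in normal tumour CAFs, so the groups overlapped, with a log2 fold change of 0.68 ± 0.29 (adjusted p = 0.0961). Fermt2 (kindlin 2) had 244 and 241 CPM in resistant and 162 and 156 CPM in normal tumour CAFs. On the log2 scale the difference was 0.61 ± 0.25 (adjusted p = 0.0873). Both resistant libraries lay above both normal ones. Vcl (vinculin) had 425 and 327 CPM in resistant and 276 and 286 CPM in normal tumour CAFs, with a log2 fold change of 0.42 ± 0.24 that did not pass. Tln2 (talin 2) had 143 and 88.5 CPM in resistant and 212 and 125 CPM in normal tumour CAFs, with overlapping groups and a log2 fold change of -0.54 ± 0.34 that did not pass either. The count of 0 came from edgeR's quasi-likelihood test, with 2 of the 4 genes at an unadjusted p under 0.05, and DESeq2 and limma-voom called 0 as well. Tln1 passed without resistant replicate 2 (adjusted p = 0.0324) and with no filter on low counts (0.0169), and Fermt2 without resistant replicate 1 (0.0447) or with read density accounted for (0.0250). Of the exonic bases of Vcl, 39.7% lie opposite exons of Ap3m1 in the GENCODE annotation, and counting by strand is not stated.

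Of the kinases and scaffolds, 1 was higher and 1 lower. Ptk2b (Pyk2), the calcium-sensitive relative of FAK, had 73.4 and 69.0 CPM in resistant tumour CAFs, against 17.3 and 16.2 CPM in normal tumour CAFs. Resistant over normal, the log2 value was 2.09 ± 0.38 (adjusted p = 0.00129). Without normal replicate 2 it was 2.01 (adjusted p = 0.0569). Ptk2 (FAK) itself had 123 and 99.1 CPM in resistant and 149 and 184 CPM in normal tumour CAFs. Between the groups the log2 fold change came to -0.59 ± 0.29, which did not pass (adjusted p = 0.152) but did without resistant replicate 1 (-0.75, adjusted p = 0.0402). Pxn (paxillin), the scaffold that FAK and vinculin bind, had 153 and 124 CPM in resistant and 239 and 241 CPM in normal tumour CAFs. As a log2 fold change this was -0.79 ± 0.26 (adjusted p = 0.0379). That call was lost without resistant replicate 2 (adjusted p = 0.0539), without either normal replicate (0.275 and 0.354) and among genes of at least 50 reads in 2 libraries (0.0514). Bcar1 (p130Cas), a docking protein that FAK and Src phosphorylate, stood at 144 and 126 CPM in resistant and 151 and 152 CPM in normal tumour CAFs. The fitted log2 fold change was -0.16 ± 0.27.

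In the complex of ILK, PINCH and parvin, which binds beta chain tails through ILK, 1 of 5 genes was higher and 1 lower. Parvb (beta-parvin) had 9 and 5 reads in resistant and 169 and 204 reads in normal tumour CAFs, that is 3.42 and 1.84 CPM against 41.9 and 34.3 CPM. The log2 fold change was -3.84 ± 0.52 (adjusted p = 1.59e-04) and lay between -4.35 and -3.46 over the alternatives. Parva (alpha-parvin) had 403 and 425 CPM in resistant and 316 and 281 CPM in normal tumour CAFs. The log2 fold change, resistant over normal, was 0.47 ± 0.23, which did not pass (adjusted p = 0.144). Lims1 (PINCH1) had 388 and 381 CPM in resistant and 246 and 194 CPM in normal tumour CAFs. That is a difference on the log2 scale of 0.80 ± 0.24 (adjusted p = 0.0238), a call lost when normal replicate 1 (0.129) or 2 (0.431) was left out. Lims2 (PINCH2) had 11 and 11 reads in resistant and 35 and 66 reads in normal tumour CAFs. On the log2 scale the difference was -1.27 ± 0.51, which did not pass (adjusted p = 0.0824) but did with scaling by library totals (0.0495). Ilk had 343 and 254 CPM in resistant and 217 and 198 CPM in normal tumour CAFs. Resistant over normal, the log2 value was 0.53 ± 0.25, which did not pass (adjusted p = 0.146) but did without resistant replicate 2 (0.0348). Its exonic bases lie for 98.7% opposite exons of Rrp8 and Taf10, so its count may hold reads of these genes or have lost reads to them.

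Of the LIM proteins and actin regulators at the outer end of the adhesion, Lpp was called. Lpp, a relative of zyxin that is abundant in smooth muscle and fibroblasts, had 1330.6 and 914 CPM in resistant tumour CAFs, against 406 and 334 CPM in normal tumour CAFs. Its log2 fold change was 1.60 ± 0.25 (adjusted p = 3.64e-04), which passed in every alternative. Zyx (zyxin) had 388 and 244 CPM in resistant and 309 and 314 CPM in normal tumour CAFs, and Vasp, which elongates actin filaments, had 169 and 81.8 CPM in resistant and 114 and 134 CPM in normal tumour CAFs. In both genes the normal values lay between the resistant ones, and the log2 fold changes were 0.02 ± 0.26 and 0.01 ± 0.35. Tns1 (tensin 1), a marker of the fibrillar adhesions in which fibronectin is assembled, had 260 and 139 CPM in resistant and 127 and 68.5 CPM in normal tumour CAFs. Between the groups the log2 fold change came to 1.03 ± 0.37, just outside the threshold (adjusted p = 0.0546). It passed in 7 of 12 alternatives, and the adjusted p over all 12 ran from 0.00272 to 0.588. Tns3 (tensin 3) had 333 and 195 CPM in resistant and 320 and 256 CPM in normal tumour CAFs, with overlapping groups and a log2 fold change of -0.12 ± 0.29.

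**Figure D4:**
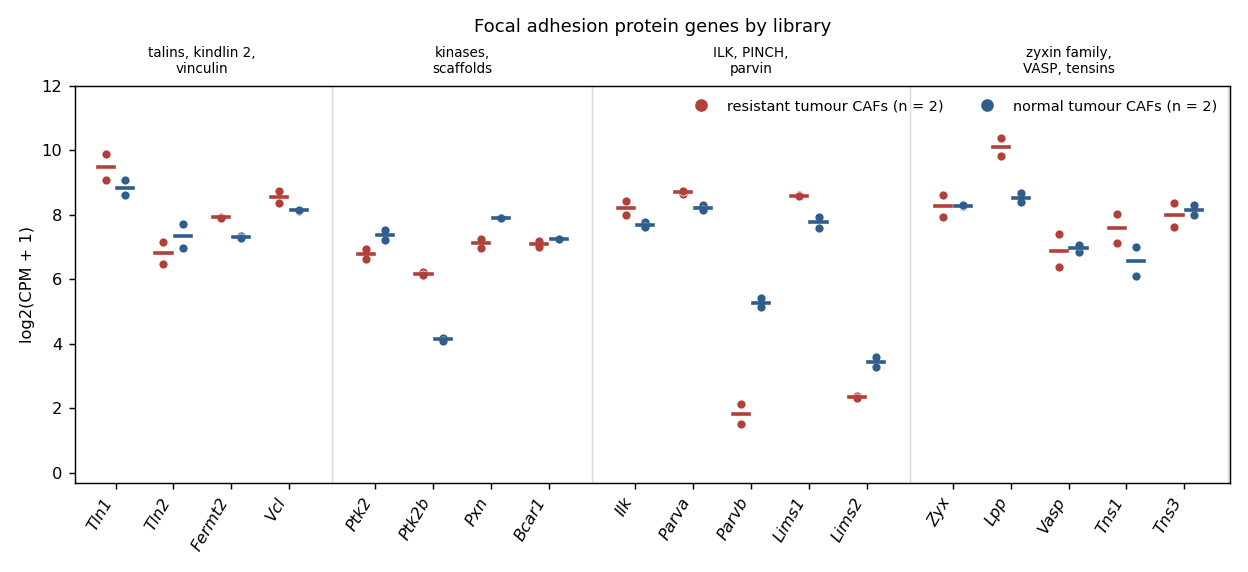
Level of each focal adhesion gene in each library as log2(CPM + 1), drawn like the integrin plot with resistant tumour CAFs in red on the left and normal tumour CAFs in blue on the right. Ptk2b and Lpp sit higher and Parvb and Lims2 lower in both resistant libraries than in either normal library, while the values of Zyx, Vasp and Tns3 overlap.

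Set beside its paralogue per length, the make-up of several pairs differed between the groups. Ptk2b made up 43.4% and 47.1% of the CPM per kb of Ptk2 and Ptk2b in resistant tumour CAFs, against 13.0% and 10.1% in normal tumour CAFs. Lpp made up 46.3% and 48.5% of Zyx and Lpp in resistant tumour CAFs, against 24.8% and 21.1% in normal ones. Parvb made up 1.02% and 0.523% of the parvins in resistant tumour CAFs, against 13.9% and 12.9% in normal ones. Lims2 made up 2.64% and 2.59% of the PINCH pair in resistant tumour CAFs, against 8.12% and 12.6% in normal ones, and Tln2 made up 9.10% and 9.98% of the talins in resistant tumour CAFs, against 20.8% and 17.7% in normal ones. The replicates of a group lay closer to each other than to the other group in each of these pairs. A difference between paralogues was not tested.

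**Figure D5:**
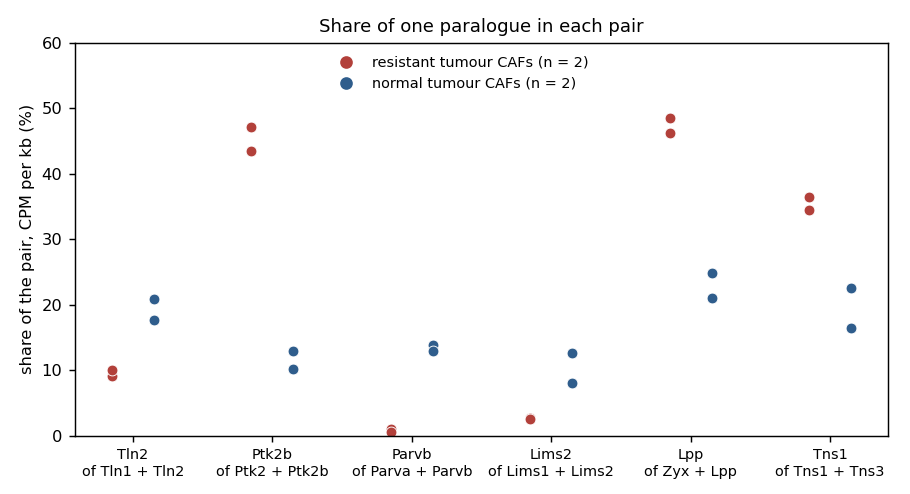
Share of the summed CPM per kb of a pair of related genes held by the named one, with resistant tumour CAFs in red to the left of normal tumour CAFs in blue and 1 point per library. Ptk2b, Lpp and Tns1 have larger shares in the resistant libraries, and Tln2, Parvb and Lims2 have smaller ones.

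Other genes of the adhesion machinery were read from lists of known components, with log2 fold changes ± SE in parentheses. Of 30 tested adaptors, 11 were higher and 6 lower, a share of 56.7% beside 29.4% of all genes tested. The median log2 fold change of these adaptors was 0.33. The actin-binding LIM protein Pdlim2 (2.41 ± 0.30), the actin bundling protein palladin, Palld (2.09 ± 0.28), and Mylk, myosin light chain kinase (2.87 ± 0.45), were higher, and the LIM protein Fhl1 (-2.20 ± 0.36) and the intermediate filament protein Synm (-3.39 ± 0.57) were lower. Of 13 actin linkers, Flnc (filamin C, 2.81 ± 0.37), Svil (supervillin, 2.20 ± 0.42) and Nexn (nexilin, 1.84 ± 0.45) were higher, and the other 10, among them Tln1 and Vcl, were not called. The share called was 23.1%, beside 29.4% of all genes, and the median was 0.40. Of 44 adhesion signalling genes, 7 were higher and 7 lower, a share of 31.8% that is near the 29.4% of all genes. Shc1, an adaptor that couples receptors to Ras (1.75 ± 0.23) and the ubiquitin ligase Cblb (2.39 ± 0.37) were higher. Arhgef6, an exchange factor for Rac and Cdc42, had 112 reads in resistant and 1 read in normal tumour CAFs, a ratio of 209 with an exact 95% counting interval of 36.7 to 8314. The phosphatase Ptprf (-3.53 ± 0.52), the Rac activator Elmo1 (-3.03 ± 0.57) and Rap1a, a GTPase that promotes talin recruitment (-1.16 ± 0.28), were lower.

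The ligands of each receptor class showed calls in both directions. Of 12 tested collagen chains that collagen receptors can meet, 6 were higher and 2 lower, a share of 66.7% beside 29.4% of all genes tested. The median log2 fold change of these collagen chains was 0.53. Col6a1 (2.60 ± 0.23), Col3a1 (2.02 ± 0.21) and Col6a2 (3.34 ± 0.47) were higher, and the collagen IV chains Col4a1 (-2.28 ± 0.29) and Col4a2 (-3.00 ± 0.49) were lower. For the 8 laminin chains tested the share called was 62.5% and the median 0.10. Of these, Lamb1 (3.01 ± 0.24), Lama4 (1.66 ± 0.29) and Lamc1 (1.60 ± 0.32) were higher, while Lama5 (-4.58 ± 0.65) and Lama1 (-2.93 ± 0.64), which carry the integrin-binding end of epithelial and embryonic laminins, were lower. Of 18 RGD and other ligands of these receptors, 9 were higher and 3 lower, a share of 66.7%, with a median of 0.72. The latent TGF-beta binding protein Ltbp1 (2.68 ± 0.27), the matricellular protein Nov (6.01 ± 0.63) and Emilin1 (3.17 ± 0.35) were higher, and the RGD protein Edil3 (-3.71 ± 0.31), nephronectin, Npnt (-2.26 ± 0.51), and Ctgf (-0.92 ± 0.29) were lower. Vtn, the vitronectin gene, had no read in any library.

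Collagen and laminin receptors that are not integrins differed as well, with 2 of 9 tested genes higher and 3 lower. The share called was 55.6%, beside 29.4% of all genes tested. The collagen receptor kinase Ddr2 stood at 738 and 487 CPM in resistant and 122 and 90.9 CPM in normal tumour CAFs, at 2.52 ± 0.28 on the log2 scale, and the collagen uptake receptor Mrc2 was also higher (3.54 ± 0.40). The proteoglycan Cspg4 (-3.86 ± 0.37) and the laminin receptor dystroglycan, Dag1 (-1.25 ± 0.29), were lower. The collagen receptor Lair1, known from leukocytes, had no read in resistant and 77 reads in normal tumour CAFs and was at least 13.8-fold lower, by 3 counts over the group.

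In the authors' deposited table of the same comparison, 3 of the 39 genes were called higher (Itga11, Itgbl1 and Ptk2b) and 3 lower (Itga7, Itgb8 and Parvb), where 8.50% of the 15879 genes listed were called in either direction. No gene called in the authors' deposited table had an absolute log2 value below 2. Itgb1 stood at -1.53 and Lpp at 1.57 in the authors' deposited table, with adjusted p of 0.502 and 0.482. The statistic in the authors' deposited table is 0 up to an absolute log2 fold change of 1.01, so its adjusted p does not test against no change and cannot be set beside those above. Ptk2b, for example, is called higher in the authors' deposited table at an adjusted p of 0.0901.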

How the data were processed

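Raw read counts per gene symbol for 4 mouse CAF libraries were used as the authors deposited them. Per the submitters' processing notes the tools were HTSeq 0.7.2, TopHat2 2.1.1, DESeq2, Picard 1.62 and bcl2fastq 2, with mm9 as the build; their roles, settings and strand mode are not stated. Per the labels' protocols, both a TruSeq kit and a SMART-seq2 protocol were used, with no word on which library had which. The log2 fold changes, their standard errors and the adjusted p-values of the authors' deposited table are positive where resistant is higher; the statistic there is 0 up to an absolute log2 fold change of 1.01. The deposited normalized table was not used.

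Counts were tested in R 4.3.3 with edgeR 4.0.16: filterByExpr (minimum count 10), trimmed mean of M values (TMM) scaling, and a quasi-likelihood F test of resistant minus normal with no other term. Adjusted p-values are Benjamini-Hochberg over all genes tested, with a threshold of 0.05. The standard error (SE) of a log2 fold change was derived from this test, as its absolute value divided by the square root of the F statistic. CPM uses TMM-scaled library sizes. Exonic lengths came from the GENCODE M21 basic annotation (GRCm38), found by gene symbol for 99.4% of the genes tested, which served only as lengths and to find overlapping genes. The floor for a gene without reads was set at 3 counts, which is 0.505 to 1.14 CPM depending on the library; floors and intervals cover counting error only. The code was also run on simulated counts with 200 changed genes and no trend with gene length, so that run says nothing about such trends. The genes, lists and tests were chosen with earlier results of these data known; all 39 genes are named, and from each other list up to 3 called genes in each direction by smallest adjusted p. Some genes that this rule would name are not reported here. A few others were named after their values were seen, among them Dcn and Pdgfra. Alternatives were relative log expression factors, library totals, no filter, DESeq2 1.42.0, a minimum of 50 reads in 2 libraries, limma-voom (limma 3.58.1), the replicate number as a block, offsets removing each library's loess trend (span 0.5) along reads per exonic base (read density), and each library left out in turn.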

Additional observations from a re-analysis of the deposited data

How the results depend on the processing

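Of the 18 called genes, 7 passed in every alternative in which they were tested: Itga11, Itga7, Itgb8, Itgb1, Itgbl1, Parvb and Lpp. A further 6 were lost only without a normal replicate, where the lone normal library is assumed to vary like the resistant ones. With 1 library left out, the adhesion genes called ranged from 3 to 12 higher and from 4 to 7 lower, and all genes called from 1057 to 2104 higher and from 925 to 2357 lower; the lowest counts came without a normal replicate. Itgb4, Itga9, Itgb2 and Itgbl1 were not tested at a filter of 50 reads. Itgb8, Itgbl1 and Parvb had passed the main filter through 1 group only. The runs with 1 library left out kept the filter set on all libraries. The median of all genes moved by -0.14 with library totals.

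Genes whose sign turned were none of the called ones. With library totals Itga6 had -0.0033, Zyx -0.12 and Vasp -0.14; with no filter Zyx had -0.038 and Vasp -0.049; with limma-voom -0.022 and -0.092; with read density offsets Itga4 had -0.19 and Tns3 0.023. With 1 library left out, log2 fold changes ranged from -1.30 to 0.15 for Itga2, -0.48 to 0.58 for Itga6, -0.24 to 0.65 for Itgav, -1.64 to 0.076 for Itgb7, -0.35 to 0.32 for Zyx, -0.60 to 0.44 for Vasp and -0.56 to 0.21 for Tns3. The cause was not tested.

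With the replicate number as a block, 14 adhesion genes were called higher and 7 lower, and 2257 and 2267 of all genes; Itga8, Tln1 and Tns1 were added, and Zyx had -0.017 and Vasp -0.071. Differences between replicates 1 and 2 correlated across genes at 0.217 between the groups, which with 2 pairs does not show that the numbers pair the libraries.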
